A study of Harpegnathos saltator with 27 samples.

Results

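The genes described here are those of the ant Harpegnathos saltator whose RNA was plentiful in both the fat body and the ovary and scarce in the brain. They were chosen from the counts themselves. Counts were scaled to counts per 1000000 gene counts of a library (CPM) and averaged over the 9 libraries of each tissue. A gene was kept if its higher mean of fat body and ovary was under 8 times the lower one, and if the lower mean plus 0.5 was at least 6 times the brain mean plus 0.5. Of 20659 gene identifiers, 70 met both conditions, so the limit of 150 set for the list was not reached. The levels in the 3 tissues chose the members and are given as a description, with no test.

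The data were 27 RNA-seq libraries of workers injected in the abdomen. JHA libraries came from workers given 500 ng of methoprene, an analog of juvenile hormone, and 20E libraries from workers given 500 ng of 20-hydroxyecdysone. EtOH libraries came from workers given about 1 µL of 10% ethanol in the same salt solution, the solvent of both hormones. Abdominal fat body, ovary and non-visual brain were collected 12 hours after injection from 3 ants of each treatment, which gives 3 libraries per tissue and treatment. The labels used here give no age, and all 3 groups were injected, so no uninjected ants stand behind these values. The p-values of each tissue measure the spread between ants.

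The insect fat body stores fat, glycogen and protein, makes most proteins of the blood, including the yolk precursor that the ovary takes up, and mounts much of the humoral immune response. The ovary holds germ cells and the somatic follicle cells that enclose them, and in adult insects it is a source of ecdysteroids. Juvenile hormone and 20E both act on these organs during reproduction, and in Harpegnathos workers can become reproductives as adults. None of the 20659 identifiers was paired with a gene name in the sources used here, so no function is given for any member, and the tissue labels could not be checked against named markers.

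In fat body a library held 13.1 to 21.6 M gene counts (M, 1000000 counts), in ovary 9.74 to 17.4 M and in brain 8.74 to 13.4 M. An earlier analysis of the same table set 4 libraries apart from the rest of their tissue, namely JHA replicate 1 and 20E replicate 3 in ovary and JHA replicate 1 and EtOH replicate 3 in brain. The 10 genes with the highest fat body means, none of them a member, held 22.3 to 32.0% of gene counts in fat body. They held 0.821% in 20E ovary replicate 3, 0.389% in JHA ovary replicate 1 and 0.161 to 0.330% in the other 7 ovary libraries. In brain they held 1.92 to 2.51%.

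Across the 70 members the median of the tissue means was 68.5 CPM in fat body, 63.8 CPM in ovary and 4.16 CPM in brain. The lower of the fat body and ovary means was at least 100 CPM for 21 members and at least 1000 CPM for 2. Brain was not empty of these transcripts, since 39 members had a brain mean under 5 CPM and only 7 a mean under 1 CPM. The median member stood at 8.93 times brain, 27 members at 10 times or more and 4 at 20 times or more. For 57 of the 70, each fat body and ovary library lay above every brain library. HSALG012250.2, the member of lowest level, was the only one without counts in some brain libraries. It had 0 counts in 7 of the 9, where 3 counts would be 0.224 to 0.343 CPM, and averaged 3.80 CPM in fat body and 6.24 CPM in ovary. Because gene lengths were not used, levels are compared between libraries and not between genes.

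**Figure D1:**
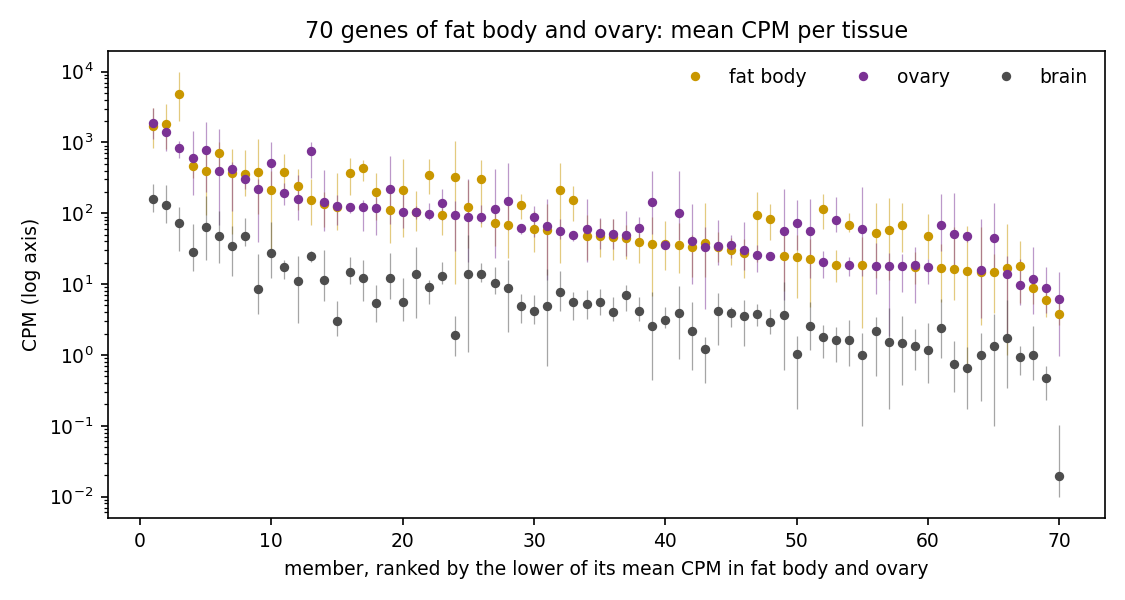
Mean CPM (points, log axis) of each of the 70 members in fat body, ovary and brain, with members ranked by the lower of their fat body and ovary means. Thin lines run from the lowest to the highest of the 9 libraries of a tissue, and are cut at 0.01 CPM where the lowest is 0; brain points lie under the other points throughout, as the selection requires.

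The members differed in how evenly the 2 abdominal tissues shared them. By CPM 31 were higher in fat body and 39 in ovary, and 38 differed by less than 2-fold. That split rests on the scaling. A few transcripts fill much of each fat body library, and with library sizes corrected by TMM, edgeR's trimmed mean method, 64 of the 70 were higher in fat body. The correction moved the ratio of fat body to ovary by 1.63 log2 units for all genes alike. HSALG004194.2 had the highest fat body to ovary ratio, with a lowest, median and highest library of 2001, 4719 and 9887 CPM in fat body and 608, 825 and 1058 CPM in ovary. HSALG020741.1 came next, at 60.5, 109 and 186 CPM in fat body and 12.2, 20.6 and 28.9 CPM in ovary. At the other end HSALG003500.2 stood at 67.9, 178 and 307 CPM in fat body and 316, 827 and 1004 CPM in ovary. HSALG003088.2 stood at 10.7, 17.7 and 30.1 CPM in fat body and 54.9, 70.9 and 172 CPM in ovary. By CPM the fat body libraries overlapped the ovary libraries in none of these 4. On TMM library sizes HSALG003500.2 and HSALG003088.2 do overlap, so for them this too rests on the scaling.

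Among the 10 members of highest lower mean, HSALG000773.2 averaged 1697 CPM in fat body, 1889 CPM in ovary and 161 CPM in brain. HSALG000772.2, with the next lower identifier, averaged 1797, 1407 and 129.9 CPM in the same order. HSALG003016.1 averaged 468 CPM in fat body, 596 CPM in ovary and 28.6 CPM in brain. HSALG009218.2, at 383, 223 and 8.49 CPM in the same order, stood 24.8 times over brain on the scale of the rule. HSALG020453.1 and HSALG007140.2 lay near the limit, at 6.13 and 6.43 times brain. HSALG013364.2, HSALG003485.2 and HSALG009310.2 had fat body means of 711, 368 and 212 CPM and ovary means of 396, 424 and 505 CPM.

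The limits of the rule cut through a continuum. The last gene inside the brain limit was HSALG001467.2 at 6.07 times, and the next one outside was HSALG000260.2 at 5.98 times. From 5 up to 6 times brain lay 25 further genes, and 16 members lay from 6 up to 7. The limit between fat body and ovary cut less closely. The member with the widest ratio was HSALG004194.2 at 5.82, and the nearest of the 5 genes that failed this condition alone was HSALG026787.1 at 8.39. The 3 non-members with the profile most like the median member were HSALG001232.1, HSALG023511.1 and HSALG025186.1. Their root mean square distances on centred log2(CPM + 0.5) over 27 libraries were 0.55, 0.59 and 0.67, where the median member itself was at 0.87. They missed the brain limit with 4.99, 5.47 and 5.05 times.

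Members tended to carry neighbouring identifiers, a feature looked for after the list was seen. There were 7 couples whose numbers differed by 1 or 2, which makes 14 of the 70 members. Of the 203 identifiers in the table within 2 numbers of a member, 6.90% were members, against 0.339% of all identifiers. Whether neighbouring numbers mark neighbouring genes is not given in the sources used here. Some couples ran closely together in level. HSALG022370.1 had 82.8, 52.2 and 37.9 CPM in JHA fat body replicates 1, 2 and 3, and HSALG022372.1 had 82.2, 56.7 and 43.2 CPM in the same libraries. In 20E ovary replicates 1, 2 and 3 they had 31.8, 37.2 and 84.4 CPM and 31.2, 38.1 and 85.7 CPM. In each of these 6 libraries the couple lay within a few CPM of each other. Reads that aligned to several places were kept in a summary line of the table and not given to genes, so values of near-identical copies would be uncertain. Whether these couples are such copies was not tested.

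The members as a group held 1.07 to 2.19% of gene counts in fat body libraries, 0.812 to 1.84% in ovary libraries and 0.0594 to 0.138% in brain libraries. In fat body they averaged 1.81 ± 0.374% with JHA, 1.40 ± 0.384% with 20E and 1.89 ± 0.280% with EtOH (SD, n = 3 each). In ovary they averaged 1.34 ± 0.431% with JHA, 1.03 ± 0.315% with 20E and 1.27 ± 0.104% with EtOH (SD, n = 3 each). In brain the averages were 0.111 ± 0.0330% with JHA, 0.0768 ± 0.0192% with 20E and 0.0936 ± 0.0172% with EtOH (SD, n = 3 each). The groups overlapped in all 3 tissues. Single libraries moved these shares. 20E ovary replicates 1 and 2 held 0.812 and 0.881%, under all 3 EtOH ovaries at 1.17 to 1.37%, while 20E ovary replicate 3 held 1.39%. JHA ovary replicate 1 held 1.84%, against 1.07 and 1.12% in JHA replicates 2 and 3. The 10 abundant fat body genes were also at their highest in 20E ovary replicate 3 and JHA ovary replicate 1, and their part in these shares was not tested. In bulk tissue, fewer cells of a type and less RNA per cell cannot be told apart.

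**Figure D2:**
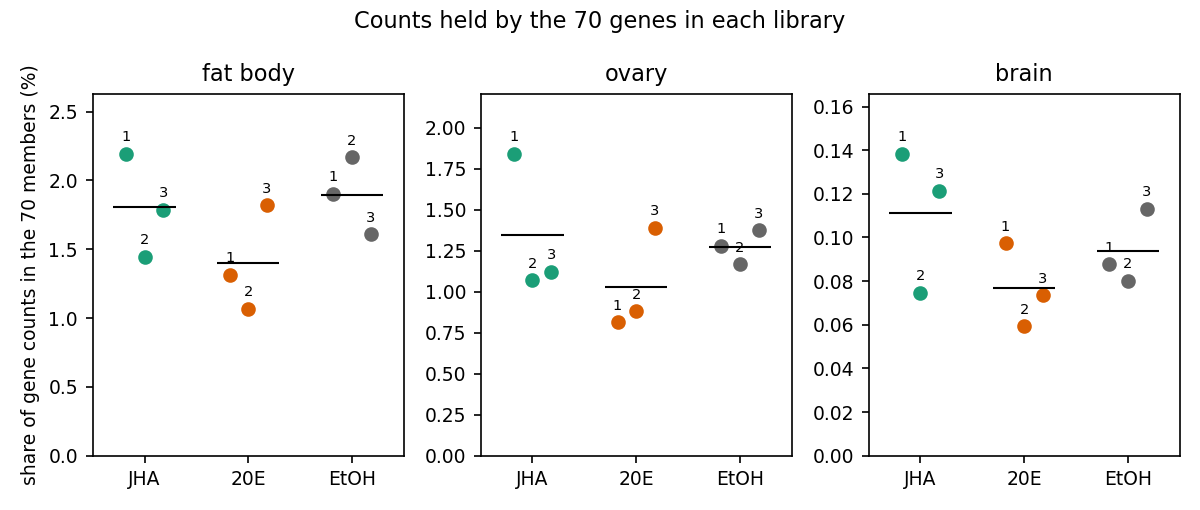
Share of each library's gene counts (%) held by the 70 members, by tissue and treatment; each point is 1 library with its replicate number, and bars are group means. The vertical scale differs between panels, 20E ovary replicates 1 and 2 lie under all EtOH ovaries, and 20E replicate 3 lies above them.

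The members' median spread between libraries of one group was larger than that of all genes tested. The standard deviation of log2(CPM + 0.5) over the 3 libraries of a group had a median over members of 0.55 in JHA, 0.55 in 20E and 0.54 in EtOH fat bodies, against 0.27, 0.27 and 0.30 over all genes tested in that tissue. In ovary the members' median was 0.79 with JHA, 0.63 with 20E and 0.24 with EtOH, against 0.33, 0.26 and 0.15 over all genes. In brain it was 0.51, 0.35 and 0.37 in the same order, against 0.25, 0.15 and 0.27. Between 67.2 and 86.6% of the members tested lay above the median of all genes in each of the 9 groups. No test was made of this difference, since the list was chosen from the same libraries. HSALG008567.2 had the widest spread in every fat body group. It stood at 343, 9.98 and 1039 CPM in JHA fat body replicates 1, 2 and 3, at 355, 13.6 and 712 CPM in the 20E replicates and at 45.2, 393 and 55.7 CPM in the EtOH replicates. The low JHA and 20E libraries of this gene both carry the number 2, and the high EtOH library does as well. Its highest fat body library was 104 times its lowest, and its highest ovary library 5.19 times its lowest.

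**Figure D3:**
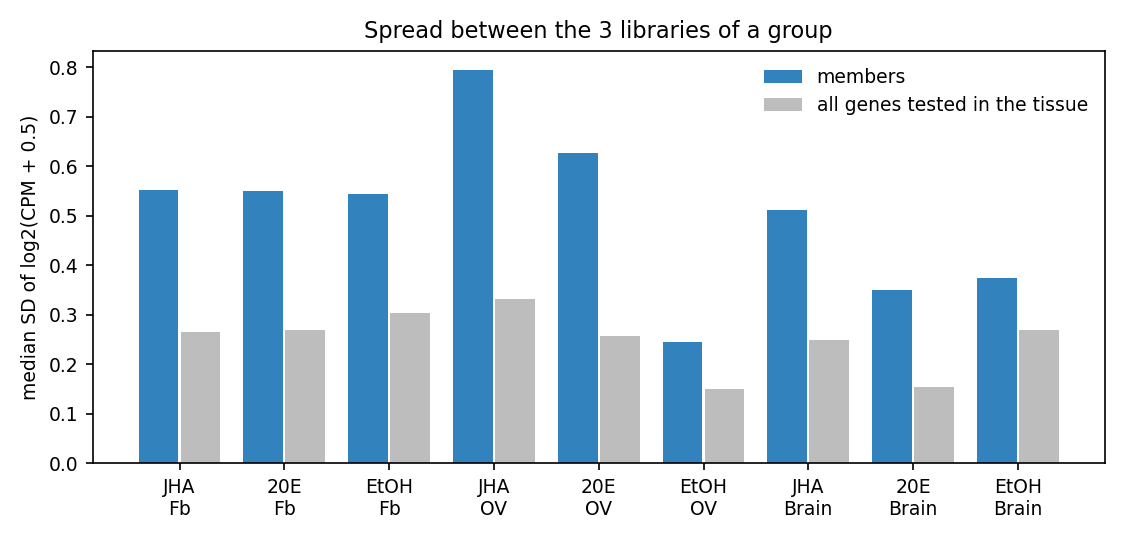
Median over genes of the SD of log2(CPM + 0.5) between the 3 libraries of each group, for the members (left bar of each couple) and for all genes tested in the same tissue (right bar). The members' bar is the higher one in each of the 9 groups, from 0.24 in EtOH ovaries to 0.79 in JHA ovaries.

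The first hormone question was which members 20E changed in fat body. HSALG000359.2, HSALG015739.2 and HSALG011139.2 fell, and HSALG004036.1 was higher in a contrast that its selection used. At an adjusted p under 0.05 (edgeR, quasi-likelihood, adjusted over all genes by Benjamini and Hochberg) these were 4 of 70 members, or 5.71%, where 1.01% of all 9870 genes tested were called. HSALG004036.1 meets the tissue rule only with its 20E fat bodies, since without them its fat body mean is 2.17 CPM and 1.21 times brain on the scale of the rule. Nothing is read from its count of 1, beside 0.598% of all genes that rose. Of the other 69 members 3 were called, or 4.35%, all lower, where 0.415% of all genes were called lower. By DESeq2's Wald test 14 members were called, where it called 4.55% of all genes. Of these 14, 11 were lower, 15.7% of the members against 2.44% of all genes. The other 3 were higher, HSALG004036.1 among them, and nothing is read from these 3. Over all members, 43 of the 70 log2 fold changes were below 0 and the median was -0.20, against a median of -0.01 over all genes. By a looser count, 14 members had all 3 20E libraries under all 3 EtOH libraries, which is 20.0% against 6.72% of all genes. Another 5 members had all 3 20E libraries above, which is 7.14% against 10.2%. Among these 5, HSALG003500.2, HSALG026363.1 and HSALG004036.1 meet the rule only with their 20E fat bodies, so nothing is read from this count. Without the 20E fat bodies 63 of the 70 members meet the rule. Leaving out any 1 of the 6 libraries kept 2 of the 4 calls, those of HSALG004036.1 and HSALG000359.2, and without 20E replicate 1 another member was called as well. With the replicate number as a block, the same 2 calls were kept and no other was made.

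HSALG004036.1 had 33.9, 35.6 and 71.5 CPM in the 20E fat bodies, against 2.09, 0.989 and 1.76 CPM in the EtOH fat bodies. Each 20E library was many times above each EtOH library. The log2 fold change of 4.77 (SE 0.41) is given as a description, with no test, since these libraries put the gene on the list. HSALG000359.2 had 17.0, 12.7 and 14.4 CPM in 20E fat bodies, against 49.0, 35.7 and 47.6 CPM in EtOH fat bodies. Its groups did not overlap, the log2 fold change was -1.64 (SE 0.18, adjusted p = 0.00739), and the call held in 12 of 12 alternative fits.

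HSALG015739.2 had 52.3, 41.7 and 49.9 CPM in 20E fat bodies, against 91.3, 137 and 131 CPM in EtOH fat bodies. All 3 hormone libraries lay lower, with a log2 fold change of -1.39 (SE 0.24, adjusted p = 0.0331). This call was lost in 8 of 12 alternative fits, among them each fit without 1 library. HSALG011139.2, named in addition because the calls were few, had 18.7, 17.8 and 30.4 CPM in 20E fat bodies, against 85.3, 138 and 121 CPM in EtOH fat bodies. Its log2 fold change was -2.45 (SE 0.43, adjusted p = 0.0412), a call lost in 7 of 12 alternative fits, again including each fit without 1 library.

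JHA in fat body gave a single call among the members. HSALG011139.2 fell here too, with 16.6, 34.0 and 12.4 CPM in JHA fat bodies, against the EtOH values above, which both hormone comparisons share. The log2 fold change was -2.49 (SE 0.43, adjusted p = 0.0416), and the call was lost in 6 of 12 alternative fits. No call among the members was left without EtOH replicate 1, 2 or 3 or without JHA replicate 1 or 3, and 2 were made without JHA replicate 2. A share of 1 in 70 members, 1.43%, lies near the 1.12% of all genes called, of which those that fell make 0.648% of all genes. The Wald test of DESeq2 called 8 members, where it called 6.06% of all genes. Of the members, 41 were above 0 and 29 below, with a median log2 fold change of 0.12, against -0.02 over all genes. The median was -0.15 without JHA replicate 1, so its sign rests on that library. Without overlap, 7 members lay higher and 7 lower with JHA, 10.0% each, against 12.3% and 7.21% of all genes. Among the 7 higher, HSALG007140.2 and HSALG021110.1 meet the rule only with their JHA fat bodies, so the selection built in part of that count. Without the JHA fat bodies 65 of the 70 members meet the rule.

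Set against 20E in fat body, JHA differed in 3 members, or 4.29%, where 0.811% of all genes differed. With JHA 2 were higher, against 0.334% of all genes. The 1 that was lower, beside 0.476% of all genes, was HSALG004036.1, from whose count nothing is read, and of the other 69 members 2 were called, or 2.90%. Among the members 11 passed DESeq2's Wald test, HSALG004036.1 again among them, where it called 4.84% of all genes. HSALG000359.2 was higher with JHA, at 39.9, 41.3 and 42.0 CPM, against the 20E libraries at 12.7 to 17.0 CPM. Its JHA libraries were within a few CPM of each other, and the log2 fold change was 1.47 (SE 0.17, adjusted p = 0.0122; lost without JHA replicate 1 or 3). HSALG002286.2 had 591, 344 and 397 CPM in JHA fat bodies, against 106, 46.1 and 66.6 CPM in 20E fat bodies. The lowest JHA library was above the highest 20E library, with a log2 fold change of 2.56 (SE 0.39, adjusted p = 0.0231; lost without 20E replicate 2 or 3 or any JHA replicate). HSALG004036.1 was lower with JHA, at 2.23, 1.95 and 3.98 CPM, with a log2 difference of -4.12 (SE 0.39), again a description. Over the 70 members the median was 0.33, with 44 above 0, against -0.01 over all genes. All 3 JHA libraries lay above all 3 20E libraries for 20 members, 28.6% against 10.1% of all genes, and under them for 5, 7.14% against 8.49%. Among the 20, HSALG007140.2, HSALG021110.1 and HSALG001922.1 meet the rule only with their JHA fat bodies. Among the 5, HSALG003500.2, HSALG026363.1 and HSALG004036.1 meet it only with their 20E fat bodies. The selection thus built in part of both counts, and nothing is read from the 5. No member was called without JHA replicate 1, and 1 without JHA replicate 3. Calls numbered 6 without 20E replicate 1 and 2 without 20E replicate 2 or 3 or JHA replicate 2.

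**Figure D4:**
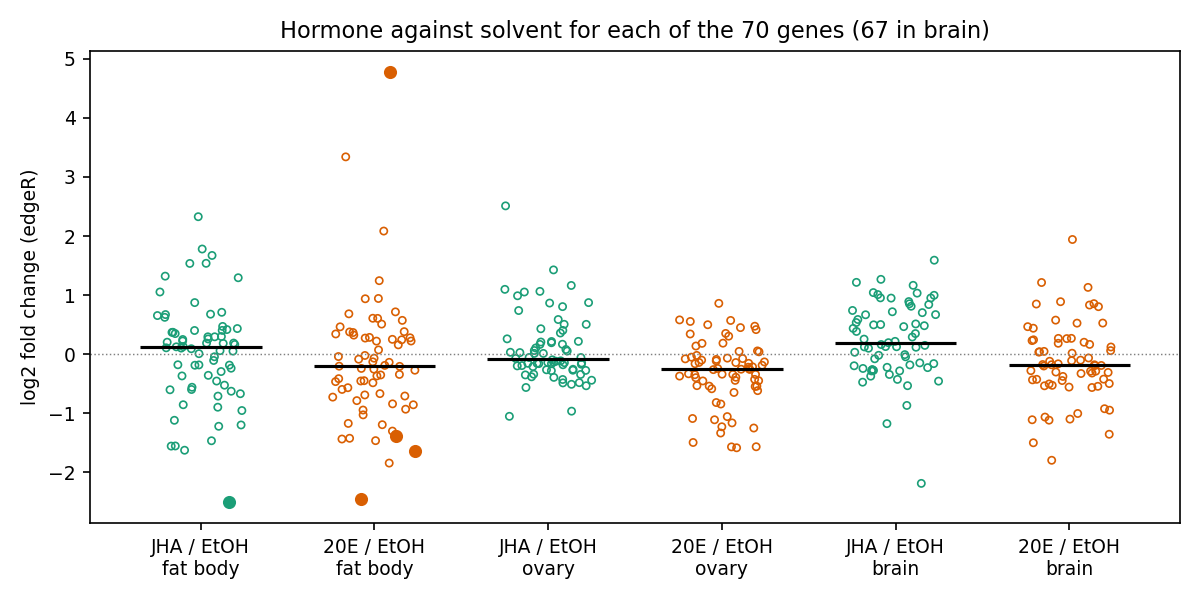
log2 fold changes (edgeR) of the members for JHA and 20E against EtOH in fat body, ovary and brain; filled points have an adjusted p under 0.05, open points do not, and bars are medians. The filled points are all in fat body, 1 with JHA and 4 with 20E, and the lowest median is that of 20E in ovary at -0.25.

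In ovary no member passed for 20E against EtOH, where 0% of 11418 genes were called, while 53 of the 70 members had a log2 fold change below 0. The members' median was -0.25, against 0.01 over all genes. At an unadjusted p under 0.05 there were 6 members, all lower, which is 8.57% against 2.40% of all genes in either direction and 1.35% lower. DESeq2's Wald test called 0 members. With library weights, limma voom gave 11 calls among the members, all lower, where 2.58% of all genes were called and 2.22% were lower. All 3 20E libraries lay under all 3 EtOH libraries for 16 members, 22.9% against 3.98% of all genes, and above them for 1 member, 1.43% against 5.68%. Among the 16, HSALG004036.1 meets the rule only with its EtOH ovaries, so the selection built in part of that count. Without the EtOH ovaries 68 of the 70 members meet the rule. The member with the smallest p was HSALG002615.2, at 86.6, 67.8 and 103 CPM in 20E ovaries, against 106, 183 and 159 CPM in EtOH ovaries. Its groups did not overlap, and its log2 difference of -0.84 (SE 0.23, adjusted p = 1.00) did not pass and stood at adjusted p = 0.108 to 1.00 over the alternative fits.

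The ovary values of 20E turn on replicate 3. Without 20E ovary replicate 3 and JHA ovary replicate 1, 12 members passed, 10 lower and 2 higher, which is 17.1% against 3.24% of all genes. Of all genes 2.25% were lower and 0.988% higher, and the members' median was -0.50. Without 20E replicate 3 alone no member passed, though the median was again -0.50. In that case, a view chosen after seeing the data, 36 members had both remaining 20E libraries under all 3 EtOH libraries, which is 51.4% against 20.4% of all genes. Another 9 had both above, which is 12.9% against 22.8%. Among the 36, HSALG004036.1 and HSALG001467.2 meet the rule only with their EtOH ovaries. Among the 9, HSALG011139.2 meets it only with its 20E ovaries. The selection thus built in part of both counts. HSALG000359.2 shows the pattern, at 10.6 and 10.1 CPM in 20E ovary replicates 1 and 2 and 27.1 CPM in replicate 3, against 37.5, 25.5 and 46.2 CPM in EtOH ovaries. Without both libraries its log2 fold change was -1.83 (SE 0.24, adjusted p = 0.0126). HSALG021999.1 went the other way, at 33.0 and 31.3 CPM in 20E replicates 1 and 2 and 6.33 CPM in replicate 3, against 14.0, 12.3 and 12.0 CPM in EtOH ovaries, with a log2 fold change of 1.31 (SE 0.13, adjusted p = 0.00558) without both. In HSALG000773.2, the 20E ovaries stood at 1113, 1347 and 3030.1 CPM, against 2193, 1713 and 2118 CPM in EtOH ovaries. Replicate 3 was the highest of these 6 and the other 20E libraries the lowest.

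For JHA in ovary no member passed either, where 0% of all genes were called. There were 2 members at an unadjusted p under 0.05, which is 2.86% against 3.51% of all genes, and neither DESeq2's Wald test nor weighted limma voom made a call among the members, 0 in each. Of the members 38 were below 0, with a median of -0.08, against 0.02 over all genes, and the median was 0.03 without EtOH replicate 3. Without overlap 4 members lay lower with JHA, 5.71% against 5.55%, and 1 higher, 1.43% against 11.2%. The 1 higher was HSALG006239.2, which meets the rule only with its JHA ovaries, so nothing is read from that count. HSALG001060.2 had the smallest p, at 82.0, 89.5 and 87.6 CPM in JHA ovaries, against 116, 126 and 126 CPM in EtOH ovaries. The 2 groups did not overlap, but the log2 difference of -0.56 (SE 0.13, adjusted p = 0.825) passed in 0 of 13 alternative fits, where its adjusted p ran from 0.158 to 1.00. In some of the members of highest level JHA ovary replicate 1 lay far from the other JHA ovaries. HSALG013364.2 had 1569.6 CPM there and 271 and 288 CPM in JHA replicates 2 and 3, against 279.7, 232 and 224 CPM in EtOH ovaries. HSALG009218.2 had 39.9 CPM there and 253 and 300.0 CPM in replicates 2 and 3, against 222, 298 and 237 CPM in EtOH ovaries. HSALG013364.2 meets the rule only with JHA ovary replicate 1, so its high value there was built in by the selection. Without that library 66 of the members meet the rule, and without all 3 JHA ovaries 65 do.

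Between the hormones in ovary no member passed, where 0% of all genes were called, with 8 members at an unadjusted p under 0.05, all higher with JHA, 11.4% against 4.21% of all genes in either direction and 2.49% higher. DESeq2's Wald test called 3 members, all higher with JHA, where it called 0.545% of all genes and 0.23% higher. Weighted limma voom called 0. All 3 JHA libraries lay above all 3 20E libraries for 6 members, 8.57% against 3.55%, and under them for 2, 2.86% against 2.71%. Among the 6, HSALG006239.2 meets the rule only with its JHA ovaries, so the selection built in part of that count. The counts by p-value were not given without it. HSALG009527.2 had 233, 56.1 and 59.2 CPM in JHA ovaries, against 13.2, 15.8 and 21.1 CPM in 20E ovaries. Its groups did not overlap, and the log2 difference was 2.75 (SE 0.55, adjusted p = 0.404; 0.000111 to 0.998 over the alternative fits, of which 1 of 13 passed).

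In brain 67 members had enough counts to be tested, all at the low levels that the selection imposes. For 20E no member passed, where 1.87% of 12379 genes did. There were 5 members at an unadjusted p under 0.05, 7.46% against 11.6% of all genes. DESeq2's Wald test called 2 members, 2.90% against 3.89% of all genes, and weighted limma voom 5, 7.46% against 12.7%. The smallest p belonged to HSALG003088.2, at 0.867, 0.807 and 0.876 CPM in 20E brains, against 2.24, 2.46 and 1.87 CPM in EtOH brains. These groups did not overlap, and the log2 difference of -1.35 (SE 0.33, adjusted p = 0.0776) passed in 1 of 13 alternative fits, where its adjusted p ran from 0.00755 to 0.302. HSALG004036.1, highest in 20E fat bodies, had 1.65, 2.93 and 5.96 CPM in 20E brains, against 0.537, 1.34 and 0.789 CPM in EtOH brains. Here too the groups did not overlap, and the log2 difference of 1.94 (SE 0.57, adjusted p = 0.154) did not pass.

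For JHA in brain no member passed, where 0% of all genes were called, and 5 members had an unadjusted p under 0.05, 7.46% against 3.22% of all genes. DESeq2's Wald test called 1 member, 1.45% against 0.246% of all genes, and weighted limma voom 0, where it called 0.267%. HSALG001060.2 was at 9.56, 3.34 and 4.46 CPM in JHA brains, against 33.0, 19.5 and 26.4 CPM in EtOH brains. The groups were well apart, and the log2 difference was -2.18 (SE 0.54, adjusted p = 0.859; 0.00795 to 1.00 over the alternative fits, of which 1 of 13 passed). HSALG001060.2 meets the rule only with its low JHA brains, and in EtOH libraries alone it stood at 4.59 times brain on the scale of the rule. Its difference is thus a description, and nothing is read from its p-values or from DESeq2's 1 call, which was this gene. The members' median log2 difference was 0.20 with JHA and -0.18 with 20E. It was 0.12 and -0.03 without JHA brain replicate 1 and EtOH brain replicate 3, the libraries that stood apart.

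**Figure D5:**
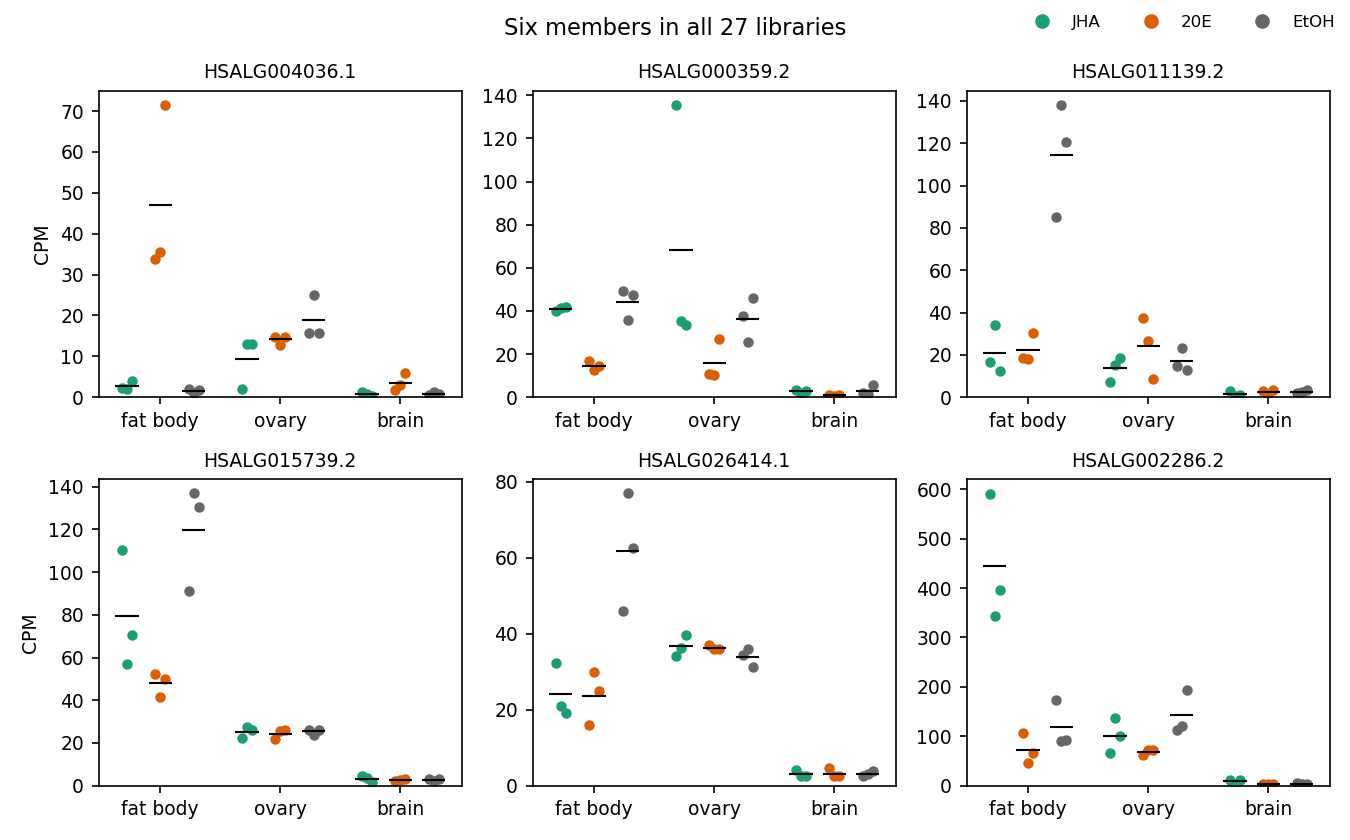
CPM of 6 members in each of the 27 libraries, with treatments in the order JHA, 20E and EtOH within each tissue and bars at group means. HSALG004036.1 is highest in the 20E fat bodies, HSALG011139.2 and HSALG026414.1 are higher in EtOH fat bodies than under both hormones, and HSALG002286.2 is highest in JHA fat bodies.

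The last question was whether a hormone acted alike on a member in fat body and ovary, tested as the difference of the 2 effects in a fit of all 27 libraries. That fit treats the tissues of one ant as independent. For 20E, 3 members differed, where 0.598% of 13367 genes did. The effect was higher in fat body for 1 member and lower for 2, beside 0.299% of all genes in each direction. The higher one was HSALG004036.1, by 5.18 log2 units (SE 0.75), which its selection built in and which is given as a description. Of the other 69 members 2 were called, or 2.90%. In ovary the gene had 14.8, 12.8 and 14.8 CPM with 20E, against 15.6, 25.1 and 15.8 CPM with EtOH, so its ovary libraries lay between its 2 fat body levels. The effect on HSALG026414.1 was lower in fat body by a log2 difference of -1.57 (SE 0.35, adjusted p = 0.0388). It had 15.9, 30.0 and 24.8 CPM in 20E fat bodies, against 46.0, 77.0 and 62.5 CPM in EtOH fat bodies, while its 9 ovary libraries stayed between 31.4 and 39.5 CPM. The effect on HSALG015739.2 was also lower in fat body, by -1.33 (SE 0.30, adjusted p = 0.0431), and its ovary libraries ranged from 21.8 to 27.4 CPM. With treatment by replicate number as a block, the presumed ant, neither of these lower calls was kept (edgeR, adjusted p = 0.0640 for HSALG026414.1 and 0.0729 for HSALG015739.2). HSALG026414.1 no longer passed in 12 of 18 alternative fits, the block among them, and HSALG015739.2 in 13. Only 1 member, HSALG004036.1, was called with any 1 of the 3 EtOH ovary libraries or EtOH fat body replicate 3 left out. The same held without 20E fat body replicate 3 or 20E ovary replicate 1 or 2. Calls numbered 2 without EtOH fat body replicate 2 or 20E fat body replicate 2.

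For JHA, 2 members differed between the tissues, where 1.44% of all genes did. The effect was higher in fat body for 1, against 0.718% of all genes, and lower for 1, against 0.726%. HSALG002286.2 had 591, 344 and 397 CPM in JHA fat bodies, against 173, 91.2 and 93.3 CPM in EtOH fat bodies. In ovary it had 66.0, 137 and 101 CPM with JHA, against 114, 119.9 and 193 CPM with EtOH. The JHA libraries lay above solvent in fat body and overlapped it in ovary, and the difference of the effects was 2.34 log2 units (SE 0.52, adjusted p = 0.0254). HSALG026414.1 had 32.3, 21.0 and 19.3 CPM in JHA fat bodies and a difference of -1.50 (SE 0.35, adjusted p = 0.0346). Neither was called within fat body alone for JHA against EtOH, where HSALG002286.2 had an adjusted p = 0.0585 and HSALG026414.1 an adjusted p = 0.0551. HSALG002286.2 no longer passed in 7 of 18 alternative fits, one of them without JHA ovary replicate 1, and HSALG026414.1 in 11. No member was called without EtOH fat body replicate 2 or 3 or EtOH ovary replicate 3. There were 3 without EtOH fat body replicate 1 or JHA fat body replicate 2, and 1 without JHA fat body replicate 1 or 3, EtOH ovary replicate 1 or 2, or JHA ovary replicate 1 or 3.

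Over all members, 20E log2 fold changes were below 0 in both fat body and ovary for 36, above 0 in both for 10 and of opposite sign for 24. For JHA these counts were 14, 17 and 39. The same joint counts were not made over all genes, so nothing is read from them. With 20E, 38.6% of members were above 0 in fat body and 24.3% in ovary, against 49.0 and 51.3% of all genes. With JHA these shares were 58.6 and 45.7%, against 48.3 and 52.0% of all genes. Of the 14 members lower without overlap in 20E fat bodies and the 16 lower without overlap in 20E ovaries, 2 were the same, 14.3% of the fat body list and 12.5% of the ovary list. These 2 are 2.86% of the 70 members, where 0.578% of the 9508 genes tested in both tissues were lower without overlap in both. The members' shares were already the higher ones in each tissue alone, at 20.0% against 6.72% in fat body and 22.9% against 3.98% in ovary. No joint response is therefore read from these 2. The 2 members were HSALG007069.2 and HSALG013305.2, named because the count is small. HSALG007069.2 had 307, 203 and 211 CPM in 20E fat bodies, against 677, 531 and 324 CPM in EtOH fat bodies, and 155, 133 and 151 CPM in 20E ovaries, against 192, 235 and 197 CPM in EtOH ovaries. In both tissues the highest 20E library lay under the lowest EtOH library, and neither difference passed the adjusted test.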

How the data were processed

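Poly(A) RNA of 27 libraries was sequenced, per the labels' protocols. The table holds raw counts of reads for each gene identifier, as deposited. Per the submitters' processing notes, HTSeq, STAR 2.5.3a and Trimmomatic were used. Neither build nor annotation nor strandedness is named (not given in the sources used here), so overlapping and antisense genes cannot be told apart. The 5 summary lines of HTSeq were removed before any scaling; reads outside genes made up 26.2 to 54.2% of a column, reads aligned to several places 6.58 to 18.5% and ambiguous reads 0.564 to 2.25%. Replicates always differed by more than sampling noise (lowest chi-square over degrees of freedom of any pair 7.94).

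The members, named genes and alternatives were chosen with earlier results of these data known. Named in the text are the 10 members of highest lower mean, those at the limits of the rule, and per comparison up to 2 higher and 2 lower called members with the smallest adjusted p, or the member of smallest p where none passed. The quasi-likelihood test of edgeR 4.0.16 in R 4.3.3 (TMM, filterByExpr, robust fit) was run on all genes of each tissue over its 9 libraries, and over all 27 for differences between tissues, with Benjamini-Hochberg adjustment over all genes tested and a threshold of 0.05. The script was tested on simulated data. Standard errors are the log2 fold change divided by the square root of F. DESeq2 1.42.0, limma 3.58.1 (voom with library weights), other size factors, no filter, a replicate block, fewer groups and fits without single libraries were alternatives. Deviations of same-numbered JHA and 20E fat bodies correlated at 0.128, 0.449 and 0.122. JHA replicate 3 and 20E replicate 1, of unlike number, reached 0.123. In ovary the same-numbered values were -0.367, 0.421 and -0.285. The reported fit did not pair these libraries. As an alternative, the replicate block kept the 3 fat body calls of JHA against 20E. Identifiers were looked up in a RefSeq table of 14329 genes, and 0 of 20659 matched, so no names or sequences are given.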

Additional observations from a re-analysis of the deposited data

Results flagged for a closer look

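The difference between the effect of a hormone in fat body and its effect in ovary passed the test for 5 combinations of member and hormone, all in the fit of all 27 libraries. The 20E effect was higher in fat body for HSALG004036.1, by 5.18 log2 units, a difference that its selection through the 20E fat bodies built in and that supports nothing. It was lower for HSALG026414.1 and HSALG015739.2, by differences of -1.57 and -1.33. The JHA effect was higher in fat body for HSALG002286.2, by 2.34 log2 units, and lower for HSALG026414.1, by a difference of -1.50. For HSALG026414.1 the EtOH fat bodies enter both differences.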

How the results depend on the processing

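For 20E against EtOH in fat body, 4 members were called in the reported fit, 14 by DESeq2, 7 without the filter on low counts and 2 with the replicate block, and 2 to 3 when single libraries were left out. Of all genes these fits called 100 of 9870, 515 of 11311, 126 of 16438 and 52 of 9870, and 13 to 105 genes without single libraries. Each of these member counts includes HSALG004036.1, which its 20E fat bodies put on the list. For JHA against EtOH in fat body, 1 was called, against 8 by DESeq2, 4 without the filter, 2 with the replicate block, 5 by weighted limma voom, 0 with only the 2 groups in the fit, and 0 to 2 without single libraries. In the same order, 111 of 9870, 608 of 10036, 143 of 16438, 80 of 9870, 187 of 9870 and 114 of 9579 genes were called. Without single libraries 4 to 82 genes were. For JHA against 20E in fat body, 3 were called, against 11 by DESeq2, 4 with the replicate block and 0 to 6 without single libraries. The same fits called 80 of 9870, 532 of 10992 and 74 of 9870 genes, and 1 to 120 genes without single libraries. HSALG004036.1 is counted here too in the reported fit, by DESeq2 and with the block. In ovary, where 0 were called, weighted limma voom gave 11 for 20E and the fit without the libraries that stood apart gave 12, and DESeq2 gave 3 for JHA against 20E. These 3 fits called 295 of 11418, 370 of 11436 and 64 of 11748 genes. In brain, where 0 were called, DESeq2 gave 2 for 20E and 1 for JHA, and weighted limma voom 5 for 20E, which is 7.46% of the members tested against 12.7% of all genes. DESeq2 called 537 of 13792 genes for 20E and 33 of 13434 for JHA. The 1 for JHA was HSALG001060.2, which its low JHA brains put on the list. Leaving out single libraries gave 0 to 0 in each ovary and brain comparison. Of all genes, such fits called 51 to 423 for 20E in brain and 0 to 3 in the other ovary and brain comparisons. For the 20E difference between fat body and ovary, 3 were called, against 1 without the filter, 1 with the replicate block, 1 with fat body and ovary libraries alone, 6 by weighted limma voom, 6 without the libraries that stood apart, and 1 to 3 without single libraries. In the same order, 80 of 13367, 65 of 19436, 104 of 13367, 25 of 11999, 187 of 13367 and 183 of 13580 genes were called. Without single libraries 40 to 139 genes were. Where 1 member was called it was HSALG004036.1, whose call the selection built in. For the JHA difference, 2 were called, against 1 without the filter, 3 with the replicate block, 0 with fat body and ovary libraries alone, 9 by weighted limma voom, and 0 to 3 without single libraries. In the same order, 193 of 13367, 124 of 19436, 279 of 13367, 40 of 11999 and 357 of 13367 genes were called. Without single libraries 78 to 301 genes were. The causes were not tested. The rule kept 70 genes, 122 on TMM library sizes, of which 54 were members, 43 at 8 times brain or more, 117 at 4 times or more, and 64 to 75 without single libraries. Without the 10 members of highest lower mean, the median share of gene counts was 0.592% in fat body, 0.456% in ovary and 0.0311% in brain. Against EtOH, replicate numbers did not pair libraries of a tissue: in fat body the deviations of same-numbered libraries correlated at -0.211 to -0.00243. Between fat body and ovary they were 0.0912 to 0.224 for equal numbers, and 18 of 18 libraries correlated best with their own number, a hint from the data and not the design.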
